A study of Mus musculus with 24 samples.

Results

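Genes of the hypoxia response and of glycolysis were followed in gliomas raised in mice by PDGFB. The module holds 38 genes of the 55938 in the deposited table, chosen by symbol: 5 of oxygen sensing and the hypoxia-inducible factors (HIF), 5 for secreted factors and pH control, 9 other HIF targets, 3 transporters of glucose and lactate, 10 of upper glycolysis, and 6 of lower glycolysis and pyruvate. PDGFB, a growth factor that acts on oligodendrocyte precursors among other cells, was introduced into the embryonic forebrain ventricles in utero, and 12 tumours were later dissected under fluorescence. Flow sorting split each tumour into fluorescent glioma cells and non-fluorescent surrounding cells, which gave 24 RNA-seq libraries. By days since transduction and symptoms there were 3 stages of 4 tumours. Mice free of symptoms at 33 to 34 days gave the asymptomatic stage (3228A, 3228B, 3228D, 3229B). Mice with symptoms at 35 to 50 days gave the early stage (3108C, 3108D, 3109D, 3145A), and mice with symptoms at 100 to 175 days the late stage (3054A, 3054B, 3054C, 3057E). All groups carry PDGFB tumours, and no brain without one was used here; the mouse strain and the promoter driving PDGFB are not given in the sources used here.

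Cells short of oxygen stabilise the HIF alpha subunits, which prolyl hydroxylases otherwise mark for destruction through the VHL ubiquitin ligase. Stabilised HIF pairs with ARNT, binds short sequences near its targets, and raises genes for blood vessel growth, pH control, glucose uptake, glycolysis and lactate export. Glioblastoma is known for hypoxic zones beside necrosis in which these genes are high.

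Summed counts per library lay between 9075510 and 15471149. Values are given in CPM, counts scaled to a common depth and for library composition (TMM), and tests are edgeR quasi-likelihood tests with Benjamini-Hochberg adjustment over all genes tested; a gene is called at an adjusted p under 0.05. Of the late tumours, 3 share the prefix 3054, so late stage, long survival and that prefix cannot be told apart, while the fourth, 3057E, stood apart and is shown separately throughout. Days since transduction were 100 for 3057E, 120 for 3054A and 175 for 3054B and 3054C. Among the late tumours, days and tumour therefore cannot be told apart either. The fluorescent label of the 3057E glioma cells is red, against green in the remaining 11 tumours. The 10 oligodendrocyte precursor markers, Pdgfra, Olig2 and Sox10 among them, summed to 11029 to 19091 CPM in the glioma libraries and 684 to 13827 in the surrounding ones, so the surrounding cells also held such RNA. The 14 microglia markers summed to 127 to 161 CPM in the glioma cells of 3054A, 3054B and 3054C and to 2611 in those of 3057E, against 271 to 826 in the asymptomatic and 171 to 281 in the early ones. In surrounding cells the same sum was 2311 in 3057E and 14407 to 22975 in the other late tumours, so the populations of 3057E were close to each other in this measure. The part of such cells in the results was not tested, and in bulk samples fewer cells of a type and less RNA per cell cannot be told apart.

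Upstream sequences are shown for the 3 members with the most matches to the HIF core motif among those called higher in late than in early glioma cells without 3057E. ACGTG and GCGTG were searched on both strands in the 250 bases before the RefSeq start (GRCm38.p6), and capitals mark the matches. The palindrome CACGTG counts as 2 matches, 1 on each strand. Bnip3 (chr7:138909520-138909756, minus strand) had 5 matches, Ldha (chr7:46845554-46845803, plus strand) had 5, and Ankrd37 (chr8:45999868-46000100, minus strand) had 4, of which 3 lie in the stretch shown. Bases inside an annotated exon were left off the downstream end.
Bnip3: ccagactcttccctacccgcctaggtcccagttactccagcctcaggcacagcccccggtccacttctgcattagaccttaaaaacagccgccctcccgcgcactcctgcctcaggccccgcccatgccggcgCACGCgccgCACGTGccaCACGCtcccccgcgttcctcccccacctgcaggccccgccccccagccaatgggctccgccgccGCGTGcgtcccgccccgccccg
Ldha: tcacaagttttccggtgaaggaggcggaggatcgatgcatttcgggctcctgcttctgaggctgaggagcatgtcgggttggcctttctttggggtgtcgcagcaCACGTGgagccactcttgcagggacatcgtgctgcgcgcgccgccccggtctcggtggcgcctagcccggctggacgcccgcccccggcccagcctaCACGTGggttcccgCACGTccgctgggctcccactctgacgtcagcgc
Ankrd37: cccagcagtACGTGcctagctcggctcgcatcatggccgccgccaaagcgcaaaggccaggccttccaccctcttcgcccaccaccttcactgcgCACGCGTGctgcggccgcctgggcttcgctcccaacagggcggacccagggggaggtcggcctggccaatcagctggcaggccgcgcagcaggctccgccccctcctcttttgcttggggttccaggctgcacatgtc
Of the 35 members with a RefSeq window, 26 (74.3%) held at least 1 match, against 38.6% of the windows of all 27025 genes. ACGTG alone was present in 16 members (45.7%) and in 16.6% of all genes. Among the 29 members with a window that were called higher, 22 held a match and 7 did not (Vegfa, Mxi1, Hk1, Gpi1, Aldoa, Tpi1 and Pkm). Where a gene had several RefSeq windows, only the first listed was searched. Other windows of Vegfa, Mxi1, Hk1, Aldoa and Pkm were therefore not searched. A match describes the letters of this window and not a bound site.

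With all libraries, 3 of the 36 members tested were called higher in late than in early glioma cells (Car9, Gpi1 and Pfkfb3) and 0 lower, where 0.200% of all genes tested were called higher and 0.0728% lower. With tumour 3057E left out, 30 of 37 were called higher and 1, Epas1, lower, where the shares of all genes were 8.58% and 8.61%. The median log2 fold change over the members was 1.27 with all libraries and 1.63 without 3057E, against 0.04 and -0.03 over all genes tested. DESeq2 called 21 of 36 members higher with all libraries, and 0 lower, with 3.38% and 2.62% of all genes. Leaving out any other single tumour lowered the edgeR count, which was 2 without 3228B, 1 without 3228D and 0 without any 1 of the other 9. In the levels themselves, the 3 libraries of 3054A, 3054B and 3054C lay above all 8 asymptomatic and early glioma libraries for 30 of 38 members, as for 10.5% of all genes, and below them for 1, as for 7.68%. Car9, and P4ha2 in the fit without 3057E, passed the count filter only through the late libraries in which they were high; aside from them, 2 of 35 members were called higher with all libraries and 28 of 35 without 3057E. Car12 was too low in glioma cells to be tested. The sum of the 10 astrocyte markers was lower in the 3054 libraries, without overlap with the younger ones. It was 864 to 1022 CPM in the glioma cells of 3054A, 3054B and 3054C, and 1971 in 3057E. Asymptomatic glioma cells gave 1554 to 2394 and early ones 1627 to 2418. Single markers differed from the sum. Aqp4 did not overlap, but read 5.68 CPM in 3057E, within the 2.21 to 7.10 of the 3054 libraries. Gja1 (0.851, 1.26 and 1.73 CPM in the 3054 libraries, 0.648 to 25.3 in younger ones) and Aldh1l1 overlapped. As with the microglia markers, their part in the difference was not tested.

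**Figure D1:**
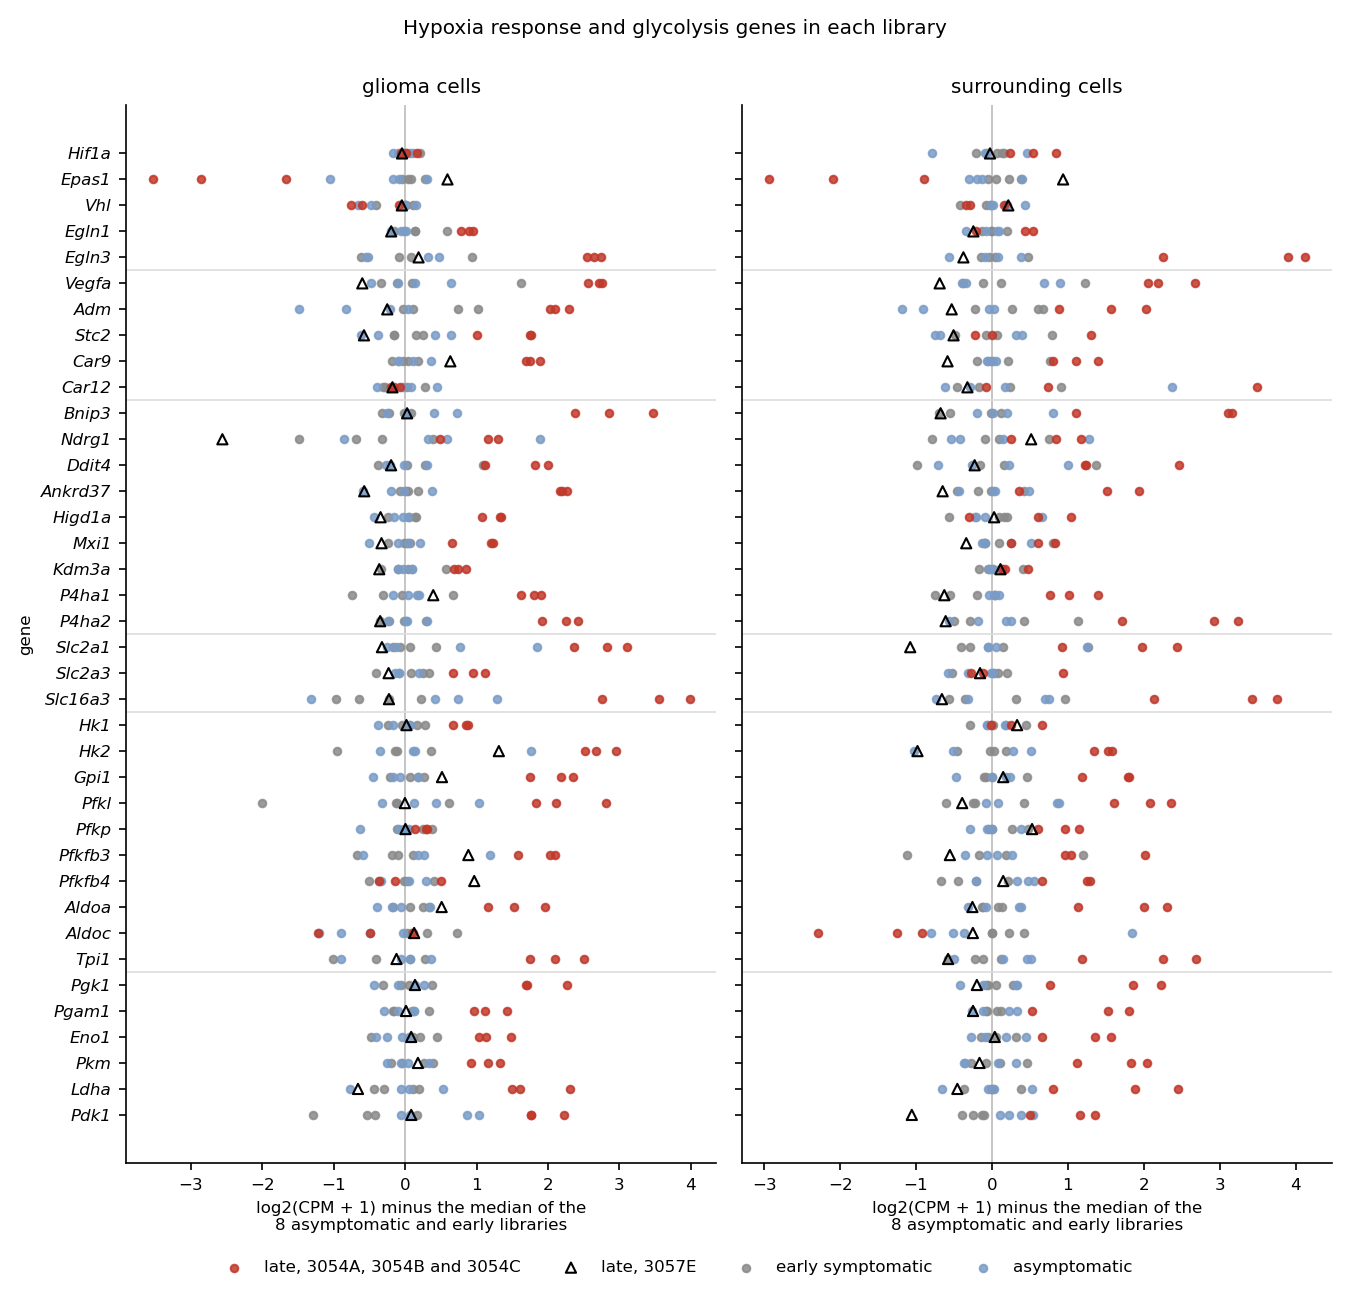
Each member (rows, grouped by role between grey lines) in each library, as log2(CPM + 1) minus the median of the 8 asymptomatic and early libraries of the same population; left, glioma cells, right, surrounding cells. Red points (3054A, 3054B, 3054C) lie right of all asymptomatic and early points for 30 members in glioma and 20 in surrounding cells. Of all genes tested, 10.5% and 9.12% do so. The open triangles (3057E) mostly fall among the asymptomatic and early points.

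Within oxygen sensing, the 2 HIF alpha subunits behaved differently. Hif1a (chr12:73901375-73947530), the subunit regulated mainly through protein stability, read 243, 283, 232 and 275 CPM in asymptomatic glioma cells, 257, 266, 301 and 249 in early ones, 294, 264 and 251 in 3054A, 3054B and 3054C, and 253 in 3057E. The stages overlapped, and the late minus early difference was -0.03 ± 0.14 (SE), edgeR adjusted p = 0.900 on the log2 scale without 3057E. Epas1 (chr17:86753700-86833410), which encodes the HIF-2 alpha subunit, read 361, 183, 473 and 338 CPM in asymptomatic and 394, 372, 464 and 406 in early glioma cells. It stood at 120.1, 32.2 and 51.7 CPM in 3054A, 3054B and 3054C and at 577 in 3057E, so that 1 late library was the highest of all and 3 were the lowest. Without 3057E it fell (-2.62 ± 0.43 (SE), edgeR adjusted p = 0.00249), and with it the difference was -1.05 ± 0.72 (SE), edgeR adjusted p = 0.431.

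The prolyl hydroxylase genes Egln3 and Egln1 rose without 3057E, and Vhl was not called. Egln3, a prolyl hydroxylase that is itself a HIF target, read 3.92, 7.81, 3.79 and 8.78 CPM in asymptomatic, 3.58, 6.44, 12.4 and 5.63 in early and 40.1, 42.7 and 45.9 in the 3054 glioma libraries, with 7.0 in 3057E. Its 3 highest libraries were those of 3054A, 3054B and 3054C, and it rose by 2.57 ± 0.38 (SE), edgeR adjusted p = 0.00123 on the log2 scale without 3057E. Egln1, the main oxygen-dependent HIF hydroxylase, read 97.1, 111, 108 and 113 CPM in asymptomatic, 169, 101, 123 and 123 in early, 194, 209 and 217 in the 3054 libraries and 97.5 in 3057E. The 3054 libraries again lay above the rest, by a smaller amount (0.63 ± 0.17 (SE), edgeR adjusted p = 0.0242). Vhl, the substrate receptor of the ligase, read 43.5 to 77.0 CPM over the asymptomatic and early libraries and 40.2 to 65.2 in 3054A, 3054B and 3054C (-0.44 ± 0.23 (SE), edgeR adjusted p = 0.202).

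All 4 tested genes for secreted factors and pH control were called higher without 3057E. Vegfa (chr17:46016993-46032369), the growth factor for blood vessels, read 49.5, 34.6, 22.4 and 29.3 CPM in asymptomatic and 29.1, 33.8, 99.0 and 24.7 in early glioma cells, 212, 191 and 218 in the 3054 libraries and 20.4 in 3057E. Its level in 3057E was below every other glioma library, and the early tumour 3109D stood apart from the other early ones. Vegfa rose by 2.11 ± 0.43 (SE), edgeR adjusted p = 0.00721 without 3057E, and the difference with it was 1.76 ± 0.63 (SE), edgeR adjusted p = 0.176. Adm, which encodes the vasodilator peptide adrenomedullin, read 7.46, 12.0, 4.35 and 14.4 CPM in asymptomatic, 24.1, 15.2, 29.3 and 13.7 in early and 72.7, 60.2 and 63.4 in the 3054 libraries, with 11.6 in 3057E. It rose by 1.63 ± 0.35 (SE) without 3057E, with the 3054 libraries above all others.

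Car9, a membrane carbonic anhydrase of pH control and a widely used hypoxia marker, was nearly absent from younger glioma cells. Its expected counts there were 1 to 8 per library, or 0.148, 0.332, 0.158 and 0.581 CPM in asymptomatic and 0.0852, 0.201, 0.396 and 0.259 in early libraries, against 2.98, 3.15 and 3.55 CPM (35, 35 and 47 counts) in 3054A, 3054B and 3054C. In 3057E it read 0.906 CPM (11 counts), above all asymptomatic and early libraries, and it was called with every library included (3.40 ± 0.64 (SE), edgeR adjusted p = 0.0462) and without 3057E (3.66 ± 0.58 (SE), edgeR adjusted p = 0.00170). Since it passed the count filter only through the late libraries, it could be tested only because it was high there, and at these counts the fitted fold changes depend on the prior count. Stc2, a secreted glycoprotein, read 3.77, 4.57, 1.34 and 1.74 CPM in asymptomatic, 2.98, 2.21, 2.22 and 3.24 in early, 11.1, 6.21 and 11 in the 3054 libraries and 1.40 in 3057E, and rose by 1.78 ± 0.42 (SE) without 3057E. Car12, the other carbonic anhydrase, had at most 11 counts in any glioma library.

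Of the 9 other HIF targets, 8 were called higher in glioma cells without 3057E. Bnip3 (chr7:138890836-138909519), a mitophagy receptor whose upstream bases are shown above, read 23.1, 30.5, 19.0 and 38.2 CPM in asymptomatic, 24.2, 19.3, 22.4 and 18.0 in early and 123, 171 and 263 in the 3054 libraries, with 23.1 in 3057E. Every 3054 library was above every younger one, and 3057E lay among the younger tumours. Bnip3 rose by 3.10 ± 0.28 (SE), edgeR adjusted p = 8.71e-05 without 3057E, and with it the difference was 2.76 ± 0.53 (SE), edgeR adjusted p = 0.0559. Ankrd37, an ankyrin repeat protein, read 1.03, 1.33, 0.553 and 2.03 CPM in asymptomatic, 1.36, 1.41, 1.66 and 1.23 in early, 9.78, 9.53 and 10.3 in the 3054 libraries and 0.577 in 3057E. Its 3054 values differed little from each other, and it rose by 2.75 ± 0.38 (SE) without 3057E. Higd1a, a mitochondrial protein of the respiratory chain, read 30.4, 29.0, 21.6 and 26.4 CPM in asymptomatic, 33.1, 30.8, 25 and 32.6 in early, 63.5, 76.5 and 75.8 in the 3054 libraries and 23.1 in 3057E, and it rose by 1.20 ± 0.17 (SE).

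The collagen prolyl hydroxylases rose at very different levels. P4ha1 read 67.0, 86.9, 78.0 and 85.2 CPM in asymptomatic, 44.8, 73.2, 121 and 60.5 in early, 284, 233 and 267 in the 3054 libraries and 99.5 in 3057E. P4ha2 read 0.296, 0.581, 0.0790 and 0.290 CPM in asymptomatic and 0.0852, 0, 0.555 and 0.259 in early glioma cells, 3.83, 5.85 and 5.05 in the 3054 libraries and 0 in 3057E. For both, the 3054 libraries lay above all others, with differences of 1.77 ± 0.26 (SE) for P4ha1 and 4.29 ± 0.71 (SE) for P4ha2. P4ha2 passed the count filter only through the late libraries in which it was high. It could be tested only because it was high there, so its call carries little weight. Smaller rises were found for Ddit4, which restrains mTOR signalling (1.31 ± 0.32 (SE)), the MYC antagonist Mxi1 (1.06 ± 0.19 (SE)) and the histone demethylase Kdm3a (0.64 ± 0.19 (SE)). Ndrg1, a stress-response gene also high in myelinating cells, was the exception at 1.60 ± 0.65 (SE), edgeR adjusted p = 0.106: it read 1.11 to 20.8 CPM in the younger tumours, 7.23, 13.5 and 12.2 in the 3054 libraries and 0 counts in 3057E.

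All 3 transporters were called higher without 3057E. Slc16a3 (chr11:120948480-120960868), the lactate exporter of glycolytic cells, read 3.40, 7.06, 0.316 and 4.50 CPM in asymptomatic, 0.682, 1.81, 2.85 and 1.10 in early, 21.3, 37.7 and 51.1 in the 3054 libraries and 1.81 in 3057E. The difference of 4.47 ± 0.72 (SE), edgeR adjusted p = 0.00239 was the largest among the 37 members tested in that fit. Slc2a1, the glucose transporter of the blood-brain barrier and of many tumours, read 14.7, 28.2, 13.4 and 60.7 CPM in asymptomatic, 17.0, 15.3, 22.2 and 14.2 in early, 87.1, 120.4 and 147 in the 3054 libraries and 12.7 in 3057E (2.74 ± 0.45 (SE), edgeR adjusted p = 0.00270). Slc2a3, the glucose transporter best known from neurons, read 51.2, 53.6, 53.6 and 65.4 CPM in asymptomatic, 71.8, 42.5, 60.3 and 67.6 in early, 90.9, 111 and 125 in the 3054 libraries and 48.3 in 3057E. Its rise was 0.80 ± 0.19 (SE), edgeR adjusted p = 0.0138, and its 3 highest libraries were the 3054 ones.

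In upper glycolysis, from hexokinase to triose phosphate isomerase, 7 of 10 members were called higher without 3057E. Gpi1 (chr7:34201330-34230336), which turns glucose phosphate into fructose phosphate, read 145, 172, 111 and 135 CPM in asymptomatic, 131, 159, 172 and 183 in early, 512, 782 and 696 in the 3054 libraries and 218 in 3057E. All 4 late libraries exceeded all 8 others, and Gpi1 was called with every library included (1.75 ± 0.30 (SE), edgeR adjusted p = 0.0379) and without 3057E (2.0 ± 0.19 (SE), edgeR adjusted p = 1.07e-04). Its counts are fractional in all 24 libraries, so its level is uncertain. Its pseudogene copy Gpi-ps, listed among other genes of the pathway, read 6.08 to 9.30 CPM in younger and 25.7, 40.0 and 34.6 in the 3054 libraries (1.84 ± 0.33 (SE), edgeR adjusted p = 0.0418), and reads of the pair cannot be told apart fully. Pfkfb3, which makes the activator of phosphofructokinase, read 20.2, 39.3, 10.7 and 18.9 CPM in asymptomatic, 18.0, 14.6, 15.5 and 10.1 in early, 51.9, 74.8 and 70.8 in the 3054 libraries and 31.6 in 3057E. It was called with all libraries (1.96 ± 0.37 (SE), edgeR adjusted p = 0.0462), and 3057E lay within the range of the younger tumours.

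Tpi1, triose phosphate isomerase, read 77.3, 104, 42.9 and 84.2 CPM in asymptomatic, 39.6, 60.3, 98.4 and 84.5 in early, 273, 347 and 461 in the 3054 libraries and 74.1 in 3057E. Aldoa, the main aldolase of proliferating cells, read 227, 329, 197 and 247 CPM in asymptomatic, 230.1, 270.2, 327 and 309 in early, 577, 748 and 1003 in the 3054 libraries and 369 in 3057E. Both rose without 3057E, by 2.31 ± 0.32 (SE) for Tpi1 and 1.41 ± 0.21 (SE) for Aldoa. Of the hexokinases, which trap glucose in the cell, the inducible Hk2 rose by 3.17 ± 0.54 (SE) and the constitutive Hk1 by 0.72 ± 0.16 (SE). Of the phosphofructokinases, the liver-type Pfkl rose (2.49 ± 0.51 (SE), edgeR adjusted p = 0.00840), whereas the platelet-type Pfkp read 39.8 to 81.5 CPM in younger and 68.7 to 77.2 in the 3054 libraries (0.07 ± 0.18 (SE), edgeR adjusted p = 0.820). Pfkfb4 (0.01 ± 0.38 (SE), edgeR adjusted p = 0.994) and the brain aldolase Aldoc (-0.80 ± 0.33 (SE), edgeR adjusted p = 0.108) were not called either.

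All 6 members of lower glycolysis and pyruvate handling were called higher without 3057E. Pgk1, an ATP-forming enzyme of the pathway, read 130.1, 168, 103 and 153 CPM in asymptomatic, 112, 134, 145 and 181 in early, 454, 456 and 673 in the 3054 libraries and 153 in 3057E. It rose by 1.84 ± 0.21 (SE), edgeR adjusted p = 2.97e-04. Ldha (chr7:46841475-46855627), which reduces pyruvate to lactate, read 169.7, 255, 103 and 183 CPM in asymptomatic, 130.0, 143, 201 and 189.8 in early, 498, 538 and 874 in the 3054 libraries and 111 in 3057E. The difference was 1.90 ± 0.28 (SE), edgeR adjusted p = 0.00118 without 3057E and 1.58 ± 0.46 (SE), edgeR adjusted p = 0.121 with it, and 3057E was among the lowest libraries. Pdk1, the kinase that shuts pyruvate out of the mitochondrial oxidation, read 13.4, 27.2, 12.2 and 24.2 CPM in asymptomatic, 4.60, 8.45, 14.4 and 9.26 in early, 45.6, 45.6 and 63.1 in the 3054 libraries and 13.6 in 3057E (2.45 ± 0.36 (SE), edgeR adjusted p = 0.00107). Pgam1, phosphoglycerate mutase, read 223, 260.2, 193 and 260.2 CPM in asymptomatic, 211, 213, 255 and 299.7 in early, 468, 516 and 643 in the 3054 libraries and 240.2 in 3057E (1.11 ± 0.17 (SE)). Enolase Eno1 (1.09 ± 0.20 (SE)) and the pyruvate kinase Pkm (0.99 ± 0.18 (SE)) rose by about as much. Every 3054 library lay above all younger glioma libraries for each of these 6 genes.

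**Figure D2:**
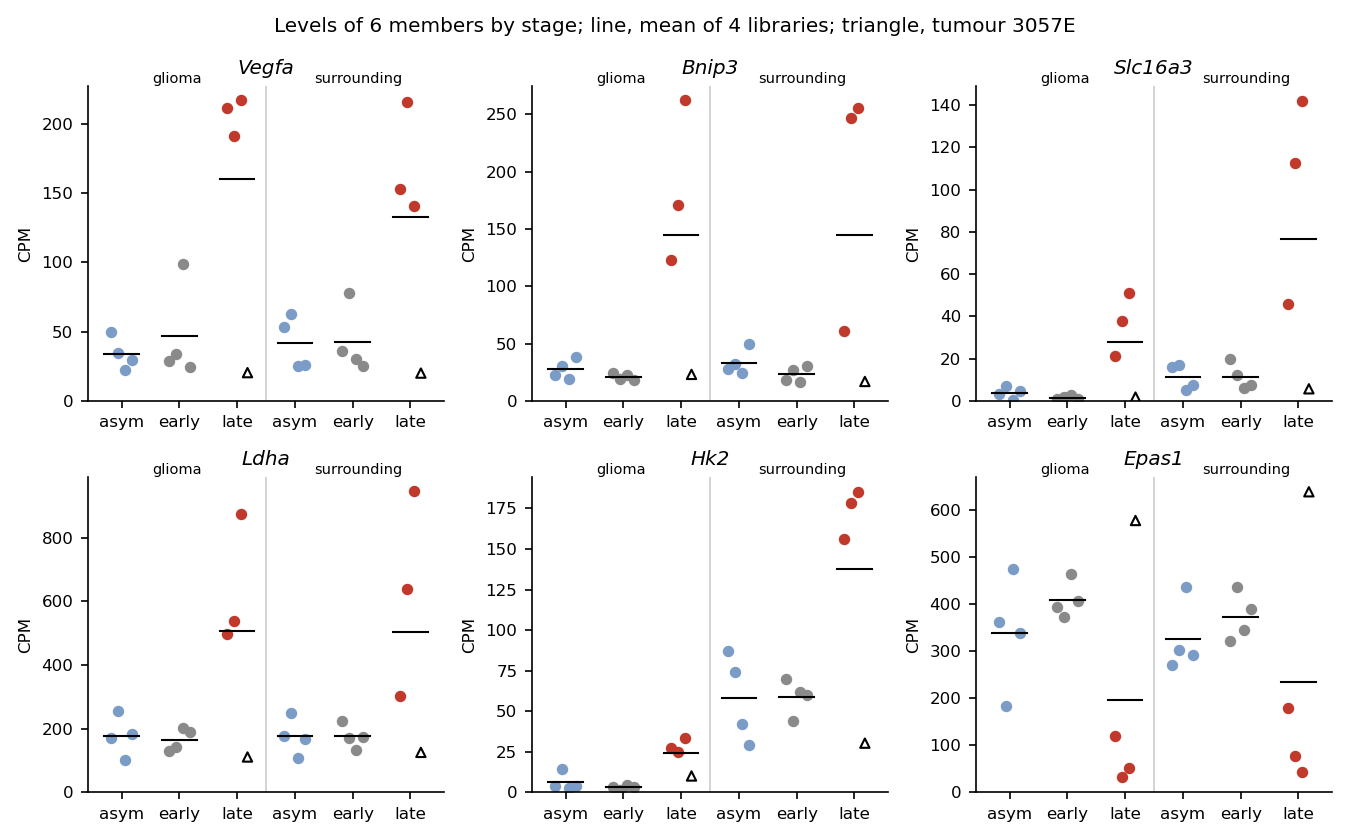
CPM (vertical axis, from 0) of 6 members in each library by stage, glioma cells left and surrounding cells right of the grey line; bars are means of 4 libraries, and the open triangle is 3057E. Vegfa, Bnip3, Slc16a3, Ldha and Hk2 are high in the 3 filled late points of both populations, Epas1 is low there, and 3057E lies near or below the younger tumours except for Epas1, where it is highest.

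Reads could be shared for several of these genes. Counts were fractional, as when a read is split between genes, in at least 20 of 24 libraries for 13 of 38 members, among them Hif1a, Bnip3, Higd1a, Aldoa, Tpi1, Pgk1, Pgam1, Eno1, Pkm and Ldha, and whole in every library for 19, among them Vegfa, Egln3, P4ha1, Hk2, Pfkl, Pfkfb3 and Pdk1. A gene on the opposite strand overlapped 16 members, Car9, Adm, Hk2 and Bnip3 among them, and since use of strand in the counting is not given in the sources used here, reads of the pair cannot be told apart there.

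Against the asymptomatic stage the late glioma cells gave a like picture. With all libraries 1 of 36 members was called higher, Gpi1 (1.96 ± 0.31 (SE), edgeR adjusted p = 0.0296), and 0 lower, where 0.109% and 0.0485% of all genes were called. Without 3057E, 30 of 37 were called higher and Epas1 lower (-2.34 ± 0.42 (SE), edgeR adjusted p = 0.00433), where 7.19% and 7.50% of all genes were called. The estimates were 2.71 ± 0.27 (SE) for Bnip3, 2.75 ± 0.36 (SE) for Adm, 2.58 ± 0.43 (SE) for Vegfa and 3.23 ± 0.67 (SE) for Slc16a3, from the same late libraries as before. The count was 2 without 3228B, 1 without 3145A and 0 without any 1 of the other 9 tumours, while DESeq2 called 20 members higher and 0 lower with all libraries, and 2.23% and 1.28% of all genes.

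No member was called between early and asymptomatic glioma cells. Aldoc read 101 to 229 CPM in asymptomatic and 237 to 384 in early libraries. The share of all genes without overlap between these stages was not counted, so this separation carries little weight. Of 36 members tested 0 were called, as were 0 of all genes tested (0%), 3 had an unadjusted edgeR p under 0.05 (Aldoc and Adm higher, Pdk1 lower), and DESeq2 also called 0 members. The median log2 fold change over the members was 0.08, against 0.02 over all genes. In surrounding cells the same comparison gave 0 of 38 called by edgeR or DESeq2 and 0 with an unadjusted p under 0.05 by either tool, with 0% of all genes called by edgeR, and a median of 0.05.

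The surrounding cells of the late tumours carried the same kind of difference. With all libraries 1 of 38 members, Egln3, was called higher in late than early surrounding cells (3.25 ± 0.72 (SE), edgeR adjusted p = 0.0457), and 0 lower, where 1.41% and 0.0681% of all genes were. Without 3057E, 21 were called higher and Epas1 lower, where 9.18% and 9.70% of all genes were, and the members' median log2 fold change was 1.35 against -0.000691 over all genes. DESeq2 called 14 higher and 0 lower with all libraries (5.39% and 1.14% of all genes), and edgeR called 0 when any other single tumour was left out. Against the asymptomatic stage 0 of 38 were called with all libraries (20 higher and 1 lower at an unadjusted edgeR p under 0.05, 13 higher by DESeq2, with 3.99% of all genes), with 0% of all genes called by edgeR. Without 3057E the counts there were 22 higher and 1 lower, where 7.58% and 8.83% of all genes were called.

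Egln3 in surrounding cells read 7.51, 9.48, 4.43 and 6.57 CPM in asymptomatic, 7.26, 10.2, 6.29 and 6.86 in early, 37.4, 139.6 and 119 in the 3054 libraries and 5.21 in 3057E. Bnip3 read 28.0, 32.1, 24.1 and 49.3 CPM in asymptomatic, 18.6, 27.4, 16.7 and 30.2 in early, 60.7, 247 and 255 in the 3054 libraries and 17.0 in 3057E. For both, 3054B and 3054C were far above 3054A, which was itself above every younger library. Without 3057E the differences were 3.64 ± 0.41 (SE), edgeR adjusted p = 0.00372 for Egln3 and 2.97 ± 0.44 (SE), edgeR adjusted p = 0.00377 for Bnip3. Slc16a3 read 16.2, 16.9, 5.38 and 7.55 CPM in asymptomatic, 19.8, 12.2, 6.20 and 7.31 in early, 45.8, 113 and 142 in the 3054 libraries and 5.73 in 3057E (3.09 ± 0.52 (SE), edgeR adjusted p = 0.00514). Vegfa read 53.6, 62.5, 24.9 and 25.8 CPM in asymptomatic, 35.8, 78.2, 30.4 and 25.2 in early, 153, 216 and 141 in the 3054 libraries and 20.1 in 3057E (1.96 ± 0.42 (SE), edgeR adjusted p = 0.0110). Ldha read 177, 249.7, 109.5 and 167 CPM in asymptomatic, 225, 171, 133 and 175 in early, 302, 639 and 947 in the 3054 libraries and 126 in 3057E (1.79 ± 0.36 (SE), edgeR adjusted p = 0.00884). In each of the 5 genes the 3054 libraries lay above all 8 younger ones and 3057E did not.

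Epas1 moved the opposite way in the surrounding cells too. It read 270.0, 303, 437 and 291 CPM in asymptomatic, 321, 435, 345 and 388 in early, 179, 77.2 and 42.4 in the 3054 libraries and 638 in 3057E. Without 3057E it fell (-1.91 ± 0.42 (SE), edgeR adjusted p = 0.0119), whereas Hif1a, at 306, 466 and 378 CPM in the 3054 libraries against 151 to 359 in younger ones, was not called (0.48 ± 0.26 (SE), edgeR adjusted p = 0.229). All 6 members of lower glycolysis and 7 of 10 of upper glycolysis were called higher, the latter including Pfkp (0.71 ± 0.21 (SE)) and Pfkfb4 (1.36 ± 0.28 (SE)), which were not called in glioma cells. Of the 21 members called higher in surrounding cells, 19 (90.5%) were also called higher in glioma cells, which is 63.3% of the 30 called there. Over all genes, 234 were called higher in both, 14.1% of the 1656 in surrounding and 16.1% of the 1453 in glioma cells; the libraries come from the same brains. Beside these values, the 10 precursor markers summed to 684 to 3639 CPM in the late surrounding cells without 3057E against 4772 to 13827 in asymptomatic and 6105 to 12594 in early ones. The 10 monocyte and macrophage markers summed to 2464 to 5405 CPM against 370.2 to 1602 and 411 to 1094. The 10 astrocyte markers summed to 259 to 973 CPM against 1521 to 5696 and 1449 to 2477, and the 10 neuron markers to 97.9 to 338 against 515 to 1466 and 496 to 992. For all 4 lists the sums of the 3054 libraries lay outside the range of the younger ones. Not every single marker did so. Aqp4 read 42.9, 13.6 and 12.1 CPM in the 3054 libraries and 24.4 to 143 in younger ones. Gja1, Aldh1l1, Rbfox3, Syt1, Ccr2, Ly6c2 and Cd163 overlapped too, whereas Pdgfra, Olig2 and Sox10 did not. The neuron sum was 867 to 1317 CPM in glioma libraries, so it is not particular to surrounding cells. The part of these lists in the differences was not tested.

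**Figure D3:**
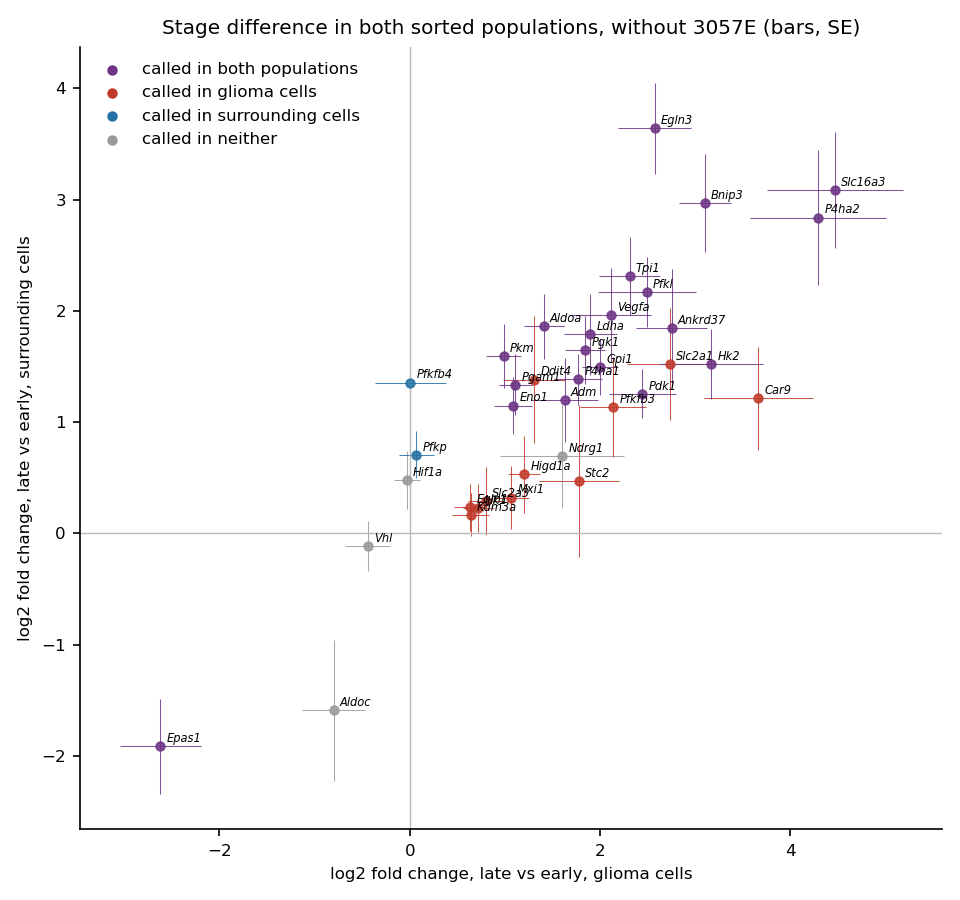
Late minus early log2 fold change of each tested member in glioma cells (horizontal) and surrounding cells (vertical), without 3057E; bars are SE and colour shows where the member was called. Most members lie in the upper right, 20 members are called in both populations (19 higher and Epas1 lower), and Pfkfb4 and Pfkp are called in surrounding cells alone.

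Whether the stage difference itself differed between the populations was tested as an interaction. With all libraries 0 of 38 members were called for late against early, with 0% of all genes, 3 at an unadjusted edgeR p under 0.05, and 0 by DESeq2. Without 3057E, 0 were called as well, where 1.97% and 2.54% of all genes were called in either direction. The smallest adjusted p belonged to Car9, whose stage difference was 2.37 ± 0.70 (SE), edgeR adjusted p = 0.0563 larger in glioma than in surrounding cells, followed by Pfkfb4 at -1.44 ± 0.46 (SE), edgeR adjusted p = 0.0756. A p above the threshold does not show that the populations changed alike. For late against asymptomatic 0 were called with all libraries (1 at an unadjusted edgeR p under 0.05, 0 by DESeq2, 0% of all genes) and 0 without 3057E (3.23% and 4.22% of all genes).

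The glioma cells of 3057E lay within the range of the 8 younger glioma libraries for 29 of 38 members. They were above that range for Epas1, Car9, Gpi1, Pfkfb4 and Aldoa and below it for Vegfa, Ndrg1, Kdm3a and Slc2a1. Compared with 3054A, 3054B and 3054C, they were below all 3 for 32 members. The surrounding cells of 3057E were within the younger range for 28 members, above it for Epas1 and Pfkp, and below it for 8. Averaged as log2(CPM + 1) over all 38 members, the glioma library of 3057E stood at 4.98, against 4.71 to 5.24 in the younger glioma libraries and 6.23 to 6.59 in the other late ones.

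Between the sorted populations, averaged over stages with all libraries, 10 of 38 members were called lower in glioma than in surrounding cells and 3 higher. Among all genes tested, 24.2% were called lower and 22.0% higher, against which the members' counts stand. DESeq2 called 12 lower and 3 higher, with 26.8% and 20.6% of all genes. Pfkfb4 read 2.54, 4.02 and 8.81 CPM (lowest, median and highest of 12) in glioma cells and 11.2, 22.5 and 46.5 in surrounding cells, without overlap. Its glioma minus surrounding difference was -2.41 ± 0.21 (SE), edgeR adjusted p = 9.10e-09. Hk2 read 1.31, 4.34 and 33.6 CPM in glioma and 29.4, 65.8 and 185 in surrounding cells, which overlapped through the glioma library of 3054C alone (-3.32 ± 0.33 (SE), edgeR adjusted p = 5.97e-08). Ndrg1 read 0, 6.55 and 20.8 CPM in glioma and 44.3, 89.2 and 188 in surrounding cells, without overlap (-3.96 ± 0.48 (SE), edgeR adjusted p = 6.83e-07). These are the 3 with the smallest p among those lower in glioma cells.

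The members lower in glioma cells also included Pfkfb3, at 10.1, 19.6 and 74.8 CPM against 35.4, 85.3 and 319 (-2.01 ± 0.28 (SE)), and Slc2a1, at 12.7, 19.6 and 147 CPM against 34.4, 78.9 and 403 (-1.81 ± 0.39 (SE)). Slc16a3 stood at 0.316, 3.13 and 51.1 CPM against 5.38, 14.2 and 142 (-1.94 ± 0.50 (SE)). The ranges of the populations overlapped for each of these 3 genes, and the 3054 libraries were the highest glioma ones. Pdk1 (-1.22 ± 0.25 (SE)), Car9 (-1.54 ± 0.36 (SE)), P4ha2 (-2.37 ± 0.59 (SE)) and Car12 (-2.81 ± 0.79 (SE)) were lower as well. With all libraries, neither P4ha2 nor Car12 passed the count filter within glioma cells. Both could be tested between the populations only because they were high enough in surrounding cells, so their calls carry little weight. Car12 in surrounding cells rested on few libraries, with 0.223 CPM in 3057E but 16.2 in 3054C and 6.93 in 3229B.

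Higher in glioma cells were Egln1, Slc2a3 and Hk1. Egln1 read 97.1, 118 and 217 CPM in glioma and 69.7, 88.7 and 129 in surrounding cells (0.58 ± 0.13 (SE), edgeR adjusted p = 0.00119). Slc2a3 read 42.5, 62.9 and 125 CPM against 27.6, 40.0 and 81.0 (0.74 ± 0.17 (SE), edgeR adjusted p = 9.48e-04). Hk1 read 69.0, 94.4 and 167 CPM against 56.8, 74.0 and 110.4 (0.45 ± 0.12 (SE), edgeR adjusted p = 0.00308). All 3 pairs of ranges overlapped, so that for the hexokinases the inducible Hk2 was lower and the constitutive Hk1 higher in glioma cells. With the tumour as a block, 15 members were called lower and 7 higher, where 25.8% and 28.6% of all genes were. The block added Stc2 (0.90 ± 0.29 (SE), edgeR adjusted p = 0.0175), Pgam1, Eno1 and Kdm3a on the higher side and P4ha1 (-0.45 ± 0.10 (SE), edgeR adjusted p = 0.00171), Pfkl, Mxi1, Aldoa and Gpi1 on the lower side. The microglia markers summed to 127 to 2611 CPM in glioma and 2311 to 22975 in surrounding cells, with all 14 lower in glioma cells, the 14 endothelial markers to 149 to 579.8 against 252 to 743, and the 10 mature oligodendrocyte markers to 431 to 3428 against 3391 to 30860.4. The endothelial sums overlapped, but some single markers did not. Pecam1 read 0.170 to 7.40 CPM in glioma and 15.3 to 52.6 in surrounding cells, Cldn5 0 to 2.98 against 5.28 to 35.2, and Cdh5 0 to 5.15 against 11.4 to 88.8. Other genes of the list therefore made up most of the glioma sum, and their single values are not given here. The part of all these lists in the population differences was not tested.

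**Figure D4:**
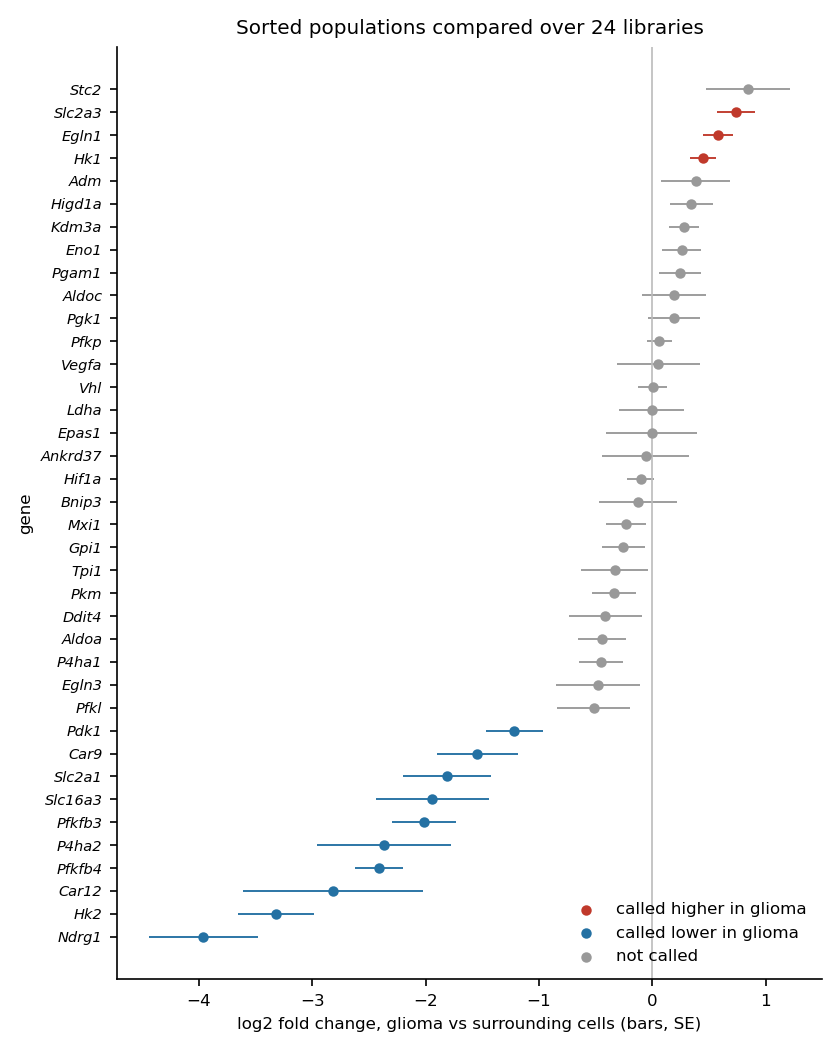
Glioma minus surrounding log2 fold change (horizontal; bars, SE) of the 38 members, averaged over the 3 stages with all 24 libraries and sorted by size. Ndrg1, Hk2, Car12, Pfkfb4 and P4ha2 are furthest to the left among the 10 called lower, and Slc2a3, Egln1 and Hk1 are the 3 called higher. Car12 and P4ha2 passed the count filter only through the surrounding cells.

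Stage by stage, the asymptomatic tumours gave 4 members lower in glioma cells (Hk2, Pfkfb3, Pfkfb4 and Ndrg1) and 0 higher, with 12.5% and 1.30% of all genes. 1 member was higher at an unadjusted edgeR p under 0.05 there, and DESeq2 called 0 higher (2.46% of all genes). Without 3057E in the fit, 9 were lower and 0 higher (15.1% and 3.12%). The early tumours gave 8 lower and 0 higher, with 12.4% and 1.06% of all genes, 1 higher at an unadjusted edgeR p under 0.05 and 0 by DESeq2 (1.72% of all genes). Without 3057E in the fit, 9 were lower and 1 higher (14.2% and 3.14%), and the count lower was 5 without 3108C. The late tumours gave 5 lower (Hk2, Pfkfb3, Pfkfb4, Ndrg1 and Car12) and 3 higher (Egln1, Slc2a3 and Hk1), with 19.9% and 15.4% of all genes. Without 3057E the late counts were 10 lower and 5 higher (23.3% and 19.5% of all genes), DESeq2 called 7 lower and 3 higher (23.2% and 14.6%), and the 3 higher calls fell to 0 without 3054A and 1 without 3054C. The tumour block gave 9 lower in the asymptomatic stage (13.4% of all genes) and 6 higher in the late stage (22.8%). Late-stage values were -2.52 ± 0.55 (SE), edgeR adjusted p = 0.00142 for Hk2 and 0.83 ± 0.23 (SE), edgeR adjusted p = 0.00777 for Egln1.

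Levels can be compared between genes per kilobase of merged exon. In glioma cells the highest median levels over 12 libraries, in CPM per kb with the range, were those of Pgam1 at 129.9 (97.6 to 325), Aldoa at 109 (67.5 to 345), Eno1 at 83.0 (55.5 to 217) and Pkm at 80.5 (57.9 to 174), with overlapping ranges. Aldoc and Pgk1 came next, and then Epas1 at 65.5 (5.76 to 103), while Hif1a stood below Ldha at 44.2 (39.3 to 51.1). Hif1a had the narrowest relative range of these. Among hexokinases the median per kb was 11.1 (8.09 to 19.6) for Hk1 and 0.727 (0.219 to 5.62) for Hk2 in glioma cells, without overlap, whereas in surrounding cells it was 8.67 (6.66 to 12.9) for Hk1 and 11 (4.93 to 31.0) for Hk2, with overlap. The lowest members in glioma cells were Car9 at 0.158 (0.0370 to 1.54), P4ha2 at 0.0470 (0 to 0.937) and Car12 at 0.0286 (0 to 0.105) CPM per kb.

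Other genes of both pathways outside the 38 were counted from lists that were likewise written with earlier results known. Of 42 further HIF pathway genes, 3 of 41 tested were called higher in late than early glioma cells with all libraries: the collagen cross-linking enzyme Lox (3.49 ± 0.39 (SE), edgeR adjusted p = 0.00772), the corepressor Rcor2 (3.11 ± 0.52 (SE), edgeR adjusted p = 0.0379) and Zfp395 (1.71 ± 0.30 (SE), edgeR adjusted p = 0.0379). In that fit 0.200% of all genes tested were called higher. Lox read 0.872 to 2.99 CPM in younger glioma libraries, 7.57, 17.1 and 16.4 in the 3054 libraries and 7.58 in 3057E. Without 3057E, 19 of these HIF pathway genes were called higher and 2 lower, where 8.58% and 8.61% of all genes were. The 2 lower were the HIF partner Arnt2 (-1.09 ± 0.15 (SE)) and Bhlhe41 (-0.99 ± 0.32 (SE)), and the list's median was 0.86. The hydroxylase genes Egln2 (-0.08 ± 0.26 (SE), edgeR adjusted p = 0.863) and Hif1an (-0.29 ± 0.19 (SE), edgeR adjusted p = 0.308) were not called. Of 38 further genes of glycolysis and pyruvate metabolism, 1 of 33 was called with all libraries (Gpi-ps) and, without 3057E, 6 of 34 were called higher and 3 lower, with a median of 0.03, in the fit where 8.58% and 8.61% of all genes were called. Gapdh, the glycolytic enzyme often used as a reference gene, was among those called higher: it read 131 to 194 CPM in younger glioma libraries, 344, 491 and 425 in the 3054 libraries and 165 in 3057E (1.16 ± 0.15 (SE), edgeR adjusted p = 5.39e-04 without 3057E).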

How the data were processed

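RNA-seq of 24 libraries, glioma and surrounding cells of 12 mouse tumours, was used. Per the labels' protocols, polyA RNA of sorted cells was made into libraries with the CORALL Total RNA-Seq kit (Lexogen). The values are expected counts per gene that the authors deposited, made with STAR 2.7.5c and RSEM 1.3.1 on GRCm38 (mm10), per the submitters' processing notes; the annotation release and the use of strand and of molecular identifiers are not given in the sources used here. The expected counts, of which 13.2 to 16.5% per library were fractional, were rounded to whole numbers before testing. Of the gene IDs, 98.7% were in GENCODE M21, which gave positions and exon lengths on GRCm38. The symbol Aldoa stood on 2 rows, and the second, a short low-count gene, was not used.

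Genes were filtered with filterByExpr (count minimum 10), scaled by TMM and tested in edgeR 4.0.16 (R 4.3.3) with robust quasi-likelihood fits: within each population for stages, and over all 24 libraries for populations and interactions. Fold changes are log2, with SE computed as the fold change divided by the square root of F. The alternatives were DESeq2 1.42.0, its size factors in edgeR, no count filter, 1 fit for all 24 libraries, each tumour left out and the tumour as a block. Chosen after seeing the data were the alternatives without 3108D and 3109D, without the glioma library of 3057E alone, and DESeq2 without 3057E. The test was run on simulated counts with the same spread for every gene and no outlying library. That check does not cover a group like the late one with 3057E. Libraries of a group differed beyond sampling noise, with a chi-square per degree of freedom of at least 22.2 for each pair.

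The tumour code in the labels pairs glioma and surrounding cells of 1 mouse; their deviations from the group means correlated at 0.0256 to 0.489 (median 0.317). Xist was at 1611 CPM in glioma and 2.10 in surrounding cells of 3108D and at 1.90 and 1102 in 3109D, so those codes may be crossed, and the block was also run with them exchanged. Stages were set by the labels' days and symptoms.

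The members and lists were chosen with earlier results of these data known. All 38 members are accounted for. Values by library are given for up to 4 members per role with the smallest p for late against early glioma without 3057E, for Hif1a, Epas1, Vhl and the members called with all libraries. Up to 3 members higher and 3 lower in glioma cells were named, and up to 3 genes of each other list. Promoter windows came from RefSeq (GRCm38.p6) for 35 members.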

Additional observations from a re-analysis of the deposited data

Results flagged for a closer look

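In groups of 4 libraries, 17 member values lay far from the other 3 of their group (Dixon's test at 95%), of 228 member and group pairs examined; chance flags about 1 in 20. Among late glioma cells, tumour 3057E was the highest for Epas1 at 577 CPM and the lowest for Egln3 at 7.0, Vegfa at 20.4 and Ankrd37 at 0.577. Elsewhere in glioma cells, 3109D stood high among early tumours for Vegfa at 99.0 CPM, and 3228B stood high among asymptomatic ones for Hk2 at 14.2. In surrounding cells of asymptomatic tumours, 3229B was the highest for Car12 at 6.93 CPM, Higd1a at 41.1, Slc2a1 at 177 and Aldoc at 702. In early surrounding cells, 3108C was the highest for Mxi1 at 134 CPM and Gpi1 at 274, and 3108D the lowest for Higd1a at 17.0. In late surrounding cells, 3054B was the highest for Stc2 at 6.13 CPM, Kdm3a at 83.7 and Slc2a3 at 81.0, and 3054C the highest for Car12 at 16.2.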

How the results depend on the processing

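No result reversed under any alternative run. Shares of all genes are given in the text for DESeq2 with all libraries, the edgeR fits without tumour 3057E and the tumour block. For the other alternatives no such share was counted. Whether their counts of members rise above those of all genes cannot be told. Late against early glioma, the count of members called higher, 3 in the reported fit, was 7 with all 24 libraries in 1 fit, 5 with no count filter, 21 with DESeq2 and 31 with DESeq2 without 3057E (1 lower). Late against asymptomatic glioma, 1 in the reported fit, gave 2, 4, 20 and 30 (1 lower) under the same 4. In surrounding cells, late against early, 1 in the reported fit, gave 6 in 1 fit, 0 with no filter and 14 with DESeq2, and late against asymptomatic, 0 in the reported fit, gave 4 in 1 fit and 13 with DESeq2. With the tumour as a replicate block, glioma against surrounding cells gave 7 higher over the mean of stages, 9 lower in the asymptomatic and 6 higher in the late stage. With the codes of 3108D and 3109D exchanged in the replicate block the counts were 7 higher and 16 lower over the mean, 10 lower in the asymptomatic, 1 higher in the early, and 7 higher and 8 lower in the late stage. DESeq2 gave 7 lower in the asymptomatic stage (14.9% of all genes), and leaving out 3108D and 3109D gave 4 lower in the early stage. Leaving out 1 tumour at a time gave 0 to 30 higher and 0 to 1 lower in late against early and late against asymptomatic glioma, and 0 to 21 and 0 to 22 higher, with 0 to 1 lower, in the surrounding comparisons. For glioma against surrounding cells it gave 3 to 5 higher and 10 to 13 lower over the mean, 3 to 9 lower in the asymptomatic, 0 to 1 higher and 5 to 9 lower in the early, and 0 to 5 higher and 4 to 10 lower in the late stage, where leaving out the glioma library of 3057E alone gave 6 higher. The counts for early against asymptomatic and for both interactions were 0 in each. The cause was not tested. Of the member values outside these counts, 7318 kept direction and side of the threshold and 335 came to pass it. A further 86 no longer passed it, and 253, not called, changed sign or moved. Values of the other gene lists were not included. Low counts limit Car9, Car12, P4ha2 and Ankrd37 in glioma cells.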
